A study of Drosophila melanogaster with 3 samples.

Results

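The Cpr genes of Drosophila melanogaster encode cuticle proteins that carry the Rebers and Riddiford consensus, a chitin-binding domain. The members were taken as every protein-coding gene of the main chromosome arms whose symbol began with Cpr and a digit, which gave 70 of 13968 protein-coding genes. Of these, 35 lay on arm 3L, 21 on 2R, 5 on 2L, 5 on 3R and 4 on X, and none lay on 4 or Y. A pattern for the core of the consensus was found in the translated coding sequence of 58 of the 70 genes, or 82.9%, and in 48 of 13898 other protein-coding genes, or 0.345%, of which 25 were larval and pupal cuticle protein genes. This wider pattern was chosen after values were seen. A stricter one matched 28 of the 70 genes (40%) and 0.288% of the others.

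Occupancy was measured by chromatin immunoprecipitation followed by sequencing (ChIP-seq) with an anti-GFP antibody. The chromatin came from whole embryos of both sexes collected from 0 to 24 h, and sonication sheared it to 200 to 800 bp. The strain, mam-MiMIC-GFP, holds an eGFP exon inside an intron of mam, so that the Mastermind (Mam) protein is made as a GFP fusion from its own locus. All 3 samples belonged to 1 group of this strain, at 1 age range, and were labelled biological replicates 1 to 3. No control sample was analysed here, the depth of each sample is unknown, and signal from all embryonic tissues was mixed.

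Mam is a nuclear co-activator of Notch signalling. It has no sequence-specific DNA binding of its own and joins the DNA-binding protein Su(H) when the cleaved intracellular part of Notch is bound to it. Cpr proteins are secreted by the epidermis, the tracheae and other ectodermal epithelia, where they bind chitin fibres and set the stiffness of the exoskeleton. Their genes are short, are named by cytological band, lie largely in tandem arrays, and are transcribed in bursts tied to each round of cuticle formation, the first of them in late embryos.

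Mam-GFP summits were rare at Cpr genes. Of the 5326 reproducible peaks, those kept by the authors' irreproducible discovery rate (IDR) procedure, a summit lay within 1000 bp of an annotated transcription start site (TSS) for 1 of 70 Cpr genes, or 1.43%. The same held for 29.7% of all protein-coding genes. In the longer list of 24073 peaks called on the pooled replicates, 21 Cpr genes, or 30%, had a summit, against 58.9% of all genes. In these mixed embryos, occupancy in few cells and weak occupancy in many cannot be told apart. Where pooled peaks were limited to those with an authors' q-value of at most 0.05, 2 Cpr genes remained, Cpr65Ay and Cpr73D, or 2.86%, against 39.2% of all genes.

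The same difference stood in each replicate. In the list of replicate 1, with 30000 peaks that include background calls, 20 of 70 Cpr genes had a summit, against 63% of all genes. In replicate 2, with 24267 peaks, 20 Cpr genes had one, against 58.4% of all genes. In replicate 3, with 24306 peaks, 24 Cpr genes had one, against 58.4% of all genes. The mean share was 30.5% ± 3.30 (SD, n = 3) for Cpr genes and 59.9% ± 2.64 (SD, n = 3) for all genes, and Cpr genes were lower in 3 of 3 replicates. The ranges of the 2 sets of shares did not overlap. When each replicate was limited to its 5326 strongest peaks, 1 Cpr gene was left in each, Cpr73D, against 28.4%, 29.8% and 30.2% of all genes in replicates 1, 2 and 3. No p-value is given, because the gene set was chosen with results of these data known.

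The share of Cpr genes with a pooled summit was close to the share of the genome that such windows cover. Of all bases of the 6 arms with peaks, 27.2% lay within 1000 bp of a pooled summit and 7.13% within 1000 bp of a reproducible one. For the replicate lists the shares of bases were 32.1%, 28.4% and 28.1%, against 28.6%, 28.6% and 34.3% of Cpr genes. A gene with several TSSs has more chances of a summit nearby. Of the 63 Cpr genes with 1 TSS, 0 had a reproducible summit and 17, or 27.0%, had a pooled one, against 23.5% and 51.3% of the 10269 protein-coding genes with 1 TSS.

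**Figure D1:**
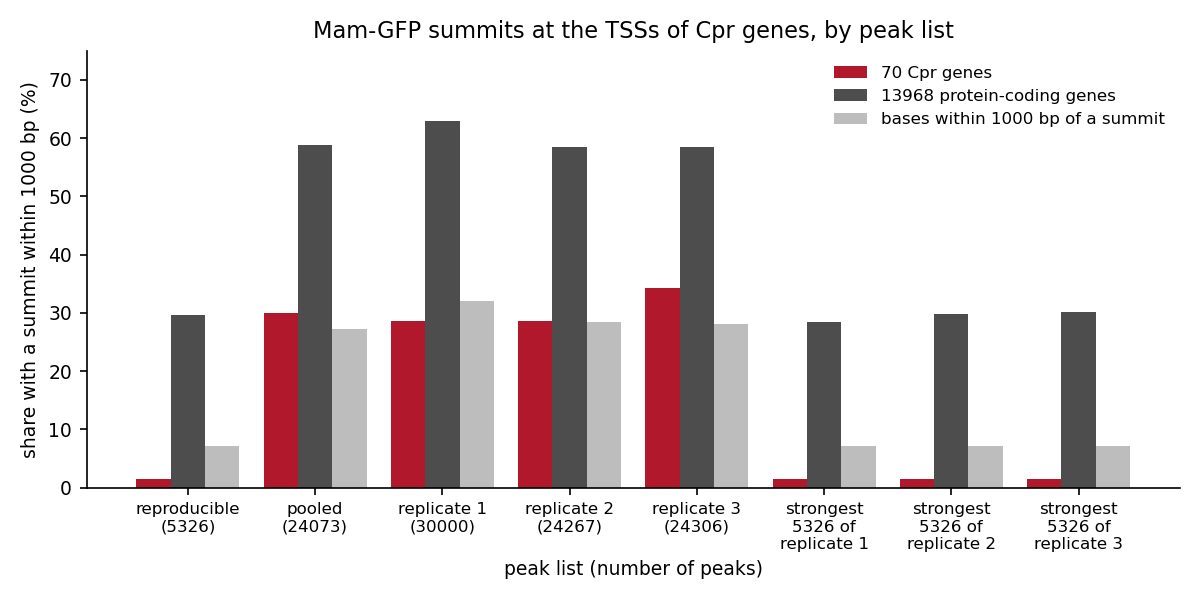
Share, in percent, of the 70 Cpr genes (red), of all 13968 protein-coding genes (dark grey) and of genome bases (light grey) that lay within 1000 bp of a Mam-GFP summit, for 8 peak lists. Cpr genes stood at 1.43% in the reproducible list and at 28.6% to 34.3% in the replicate lists, below all genes in every list.

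Few Cpr genes had a summit in more than 1 replicate. A summit was found in 0 replicate lists for 33 Cpr genes (47.1%), in 1 list for 18 (25.7%), in 2 lists for 11 (15.7%) and in all 3 for 8 (11.4%). Over all genes the shares were 25.9%, 15.3%, 11.9% and 46.9%. The 8 genes with a summit in all 3 lists were Cpr51A, Cpr64Aa, Cpr65Ay, Cpr65Ea, Cpr65Ec, Cpr67B, Cpr73D and Cpr78Cb. The 33 without one included 7 of the 8 genes of the Cpr49A array, all but Cpr49Ah, and all 4 of the Cpr76B array.

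Cpr73D was the 1 member that passed the reproducible list. The signal, the authors' peak height whose scaling the deposited notes leave unstated, was 238 in the pooled list (rank 2040), and 98.2, 65.1 and 79.2 in replicates 1, 2 and 3, at ranks 1452, 2586 and 2207 of each list. All 3 replicate summits fell within 14 bp of the pooled one. These values were above the signal at rank 5326 of the same list, which was 110 in the pooled list and 41.0, 35.7 and 38.9 in the replicates. The authors' −log10 q of the pooled peak was 4.00.

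The position of this peak ties it to a neighbour as much as to Cpr73D. Cpr73D (FBgn0036680) spans chr3L:16939100-16957689 on the minus strand of dm6, and the peak spans chr3L:16956775-16957170 with its summit at 16956973. The summit is 716 bp from the upstream, non-canonical TSS of Cpr73D at 16957689, which starts a long transcript with a non-coding first exon. The canonical TSS at 16942949 lies 14024 bp away. The summit also lies in an intron of Ogdh (FBgn0010352), an oxoglutarate dehydrogenase gene of the citric acid cycle on the opposite strand. The nearest Ogdh TSS, 16957439, is 466 bp away and is also non-canonical. The canonical Ogdh TSS at 16954822 lies 2151 bp away. Another reproducible summit, at 16955401 with a signal of 154, is 99 bp from a further non-canonical Ogdh TSS. With canonical TSSs only, 0 of 70 Cpr genes had a reproducible summit, against 27.2% of all genes.

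The sequence around this summit is shown because it is the one reproducible peak at a member. It is the plus strand of chr3L:16956823-16957024 (dm6), intronic in both genes, 202 bases with a G+C content of 23.3%. None of the motifs searched at promoters (given with the promoters) was found in it, so no base is in capitals.
Cpr73D intron: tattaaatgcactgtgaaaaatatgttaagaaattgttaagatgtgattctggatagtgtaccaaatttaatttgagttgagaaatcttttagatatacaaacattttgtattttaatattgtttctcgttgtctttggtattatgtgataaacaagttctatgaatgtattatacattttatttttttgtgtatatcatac

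The other 7 genes with a summit in all 3 replicate lists were weaker, with every value under the signal at rank 5326 of its list. Cpr65Ay was the strongest, with a pooled signal of 83.0 (rank 7318) and 36.0, 23.9 and 29.96 in replicates 1, 2 and 3. Its replicate summits were within 80 bp of the pooled one, which was intergenic, 881 bp from the Cpr65Ay TSS and 372 bp from that of CG13297. Cpr65Ea had a pooled signal of 65.3 and 21.1, 26.8 and 30.1 in the replicates. The replicate values are the strongest within 1000 bp of a TSS, and in replicate 1 that summit was 1029 bp from the pooled one, so the 3 lists did not mark the same position at Cpr65Ea. Cpr67B had 64.7 pooled and 19.9, 33.5 and 25.0 in the replicates, with the replicate 1 value 329 bp from the pooled summit, and replicate 2 came to 0.939 of the signal at rank 5326.

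Cpr64Aa had 61.6 pooled and 18.7, 25.7 and 29.4 in the replicates, and its strongest pooled summit lay in its own coding sequence. The replicate 2 value belonged to a summit 1491 bp from the pooled one, and the replicate 2 summit nearest to the pooled one had 15.01. Another pooled summit of Cpr64Aa, at 4209963, had a nearly equal signal of 61.0, and peaks of all 3 replicates overlapped its peak. The replicate 2 value, at 4209878, lay near this other pooled summit. For Cpr65Ec the values were 56.4 pooled and 19.7, 16.9 and 17.0 in the replicates, with all summits within 125 bp of the pooled one. Cpr51A had 54.6 pooled and 24.8, 13.5 and 24.9 in the replicates. The replicate 1 value was 1096 bp and the replicate 2 value 470 bp from the pooled summit, and the replicate 1 summit at the pooled position had 20.3. Cpr78Cb, at 42.4 pooled, had 19.8, 18.2 and 19.7, and its pooled summit was 720 bp away and shared with the divergent gene Cpr78Ca at 972 bp. Relative to the signal at rank 5326 of the same list, these 7 genes ranged from 0.380 to 0.939 in single replicates, and Cpr73D ranged from 1.82 to 2.39. The reproducible list held the pooled peaks down to rank 5326, so for the pooled values this split was fixed in advance. The replicate values came from the same samples, so the gap between the 2 ranges is a description only.

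**Figure D2:**
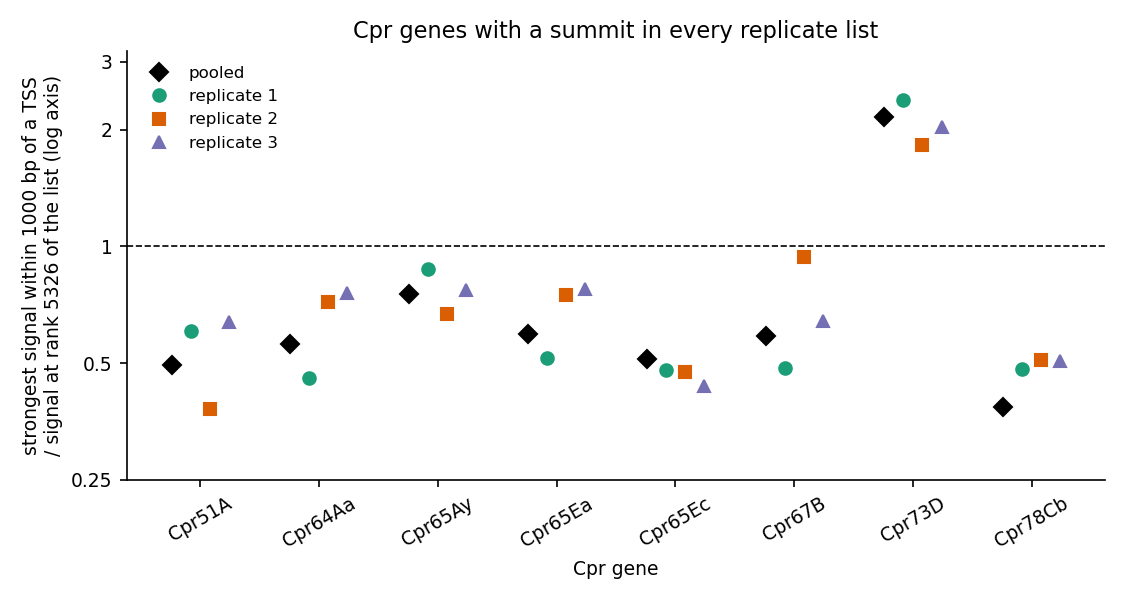
Strongest signal within 1000 bp of a TSS, divided by the signal at rank 5326 of the same list (log axis), for the 8 Cpr genes with a summit in all 3 replicate lists, with 1 point for the pooled list and 1 for each replicate. The points of Cpr73D lie above the dashed line at 1, and those of the other 7 genes lie below it. For the pooled list this split was fixed in advance, because the reproducible list held the pooled peaks down to rank 5326.

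The 10 highest pooled signals at members were, after Cpr73D, those of Cpr65Ay, Cpr65Ea, Cpr67B, Cpr64Aa, Cpr47Ec (58.7), Cpr65Ec, Cpr67Fb (55.0), Cpr51A and Cpr78Cc (53.3). Cpr47Ec had a summit in replicate 2 but in neither other replicate list. Cpr67Fb had one in replicates 2 and 3. The other 11 genes with a pooled summit ranged from 35.7 at Cpr62Ba to 42.4 at Cpr78Ca and Cpr78Cb. The authors' −log10 q of the strongest pooled summit of each of the 21 genes ran from 0.0290 to 4.00, with a median of 0.165.

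Counted as summits, 28 pooled summits lay within 1000 bp of a Cpr TSS, and 1 of them, or 3.57%, was reproducible, against 32.2% of the 10509 pooled summits within that distance of any protein-coding TSS. The weaker 27 had a median signal of 42.4, against 51.5 for the 7120 weaker summits at any gene. They were in coding sequence for 7 (25.9%) and intergenic for 13 (48.1%), against 18.0% and 30.3%. Peaks of all 3 replicates overlapped 10 of the 27, or 37.0%, against 44.7%. A Cpr TSS was the nearest protein-coding TSS for 25 of the 28 summits. The exceptions were the summits at Cpr60D (nearest CG30161), Cpr65Ay (CG13297) and Cpr73D (Ogdh).

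Reproducible summits were farther from Cpr genes than from genes in general, up to about 20 kb. The median distance from a Cpr gene to the nearest reproducible summit was 15273 bp, against 4915 bp over all genes and 6238 bp over genes with 1 TSS. A distance over 5000 bp was found for 58 Cpr genes (82.9%), against 49.6% of all genes. Within 2000 bp the share was 2.86% against 35.2%, within 10000 bp 32.9% against 65.4%, and within 20000 bp 72.9% against 80.5%. Within 50000 bp it was 98.6% against 93.7%, so the order of the sets turned between these last 2 distances. The interval between the reproducible summits on either side of the canonical TSS had a median of 49202 bp for Cpr genes and 35236 bp over all genes. In both sets an interval shared by neighbouring genes was counted once for each gene. The Cpr median equals the interval around the 7 genes of the Cpr65Au to Cpr65Az array, so large arrays weigh on it. The farthest member was Cpr50Ca, at 52375 bp.

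**Figure D3:**
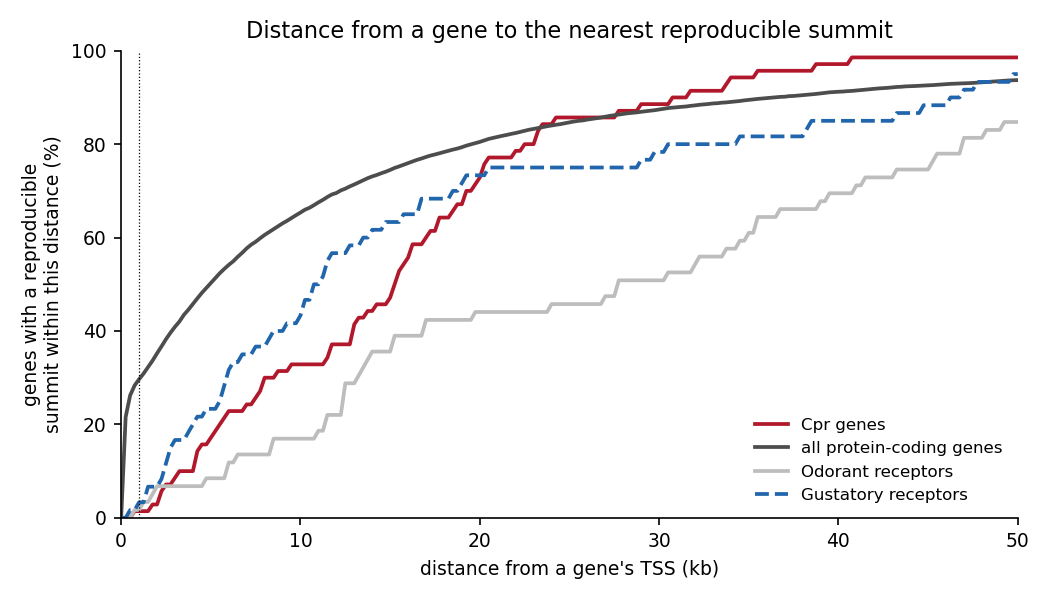
Share of genes, in percent, with a reproducible summit within the distance on the x axis (kb) of a TSS, for Cpr genes, all protein-coding genes and the odorant and gustatory receptor genes. The curve of all genes rises steeply near 0 to 29.7% at 1 kb (dotted line), whereas the Cpr curve is at 1.43% there and crosses it past 20 kb.

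Cpr genes had few close neighbours. Another gene's TSS lay within 1000 bp for 6 Cpr genes (8.57%), against 42.8% of all genes. Among genes with no such neighbour, a reproducible summit was present at 0 of 64 Cpr genes and 16.9% of all genes, and a pooled one at 17 of 64 (26.6%) and 46.4%. The Cpr shares were thus also lower when only isolated genes were counted. The shares of all genes were lower there too, against 29.7% and 58.9% without this limit. Whether the lack of close neighbours accounts for the difference was not tested. Cpr genes were shorter, with a median span of 1094 bp against 2165 bp. Their G+C content was alike, at a median of 43.5% in both sets, and 31-base sequences were unique in the genome at a median of 100% in both.

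Joined wherever the gap between them was at most 50000 bp, the 70 genes formed 33 groups, of which 21 held a single gene, 2 held 2 genes and 10 held 3 or more. The 10 clusters held 45 genes. A reproducible summit lay within 1000 bp of a member TSS in 1 of the 33 groups, the single gene Cpr73D, and in 0 of the 10 clusters. Inside the spans of the 10 clusters, 169 kb in all, there was 1 reproducible summit, or 0.590 per 100 kb, against 3.98 per 100 kb over the 6 arms. Pooled summits numbered 22, or 13.0 per 100 kb against 18.0. Counted by gene, 0 of the 45 clustered genes had a reproducible summit within 1000 bp of a TSS, against 29.7% of all genes. A pooled summit was near a member TSS in 12 of the 45 clustered genes (26.7%), in 0 of the 4 genes in pairs and in 9 of the 21 single genes (42.9%). The share over all genes was 58.9%. The difference between these classes of Cpr genes was not tested.

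The longest cluster interval and the third longest were on arm 2R. The Cpr49Aa to Cpr49Ah cluster, the largest with 8 genes (chr2R:12376626-12415170), lay in an interval of 80586 bp without a reproducible summit, from 1 near ana3, 31704 bp to the left with a signal of 133, to 1 near Dera, 10338 bp to the right with 126. Its nearest member, Cpr49Ah, was 11546 bp from a reproducible summit, and 1 of its 8 genes had a pooled one. The Cpr47Ea to Cpr47Eg cluster of 7 genes (chr2R:11251751-11278445) lay in an interval of 61434 bp, between summits near CG7737 (signal 931) and CG13220 (220). Cpr47Eg was its nearest member, at 5719 bp. Over all 21 genes of this arm, 5 had a pooled summit (23.8%), against 57.9% of all genes of the arm.

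On arm 3L, 12 of 35 genes (34.3%) had a pooled summit, against 59.2% of all genes of the arm. Cpr65Au to Cpr65Az (chr3L:6131242-6161589), an array of 7 Cpr genes among 10 larval and adult cuticle genes such as Lcp65Aa and Acp65Aa, lay in an interval of 49202 bp between summits near l(3)mbn (signal 347) and fmt (113). None of these 10 neighbours had a reproducible summit within 1000 bp of a TSS. Cpr65Au, the member closest to one, was 7282 bp away. Cpr65Ax1 and Cpr65Ax2 of this array had 35.1% and 36.0% of 31-base sequences unique, so their lack of summits is uncertain.

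Cpr72Ea to Cpr72Ec (3 genes) had an interval of 70881 bp, between summits near CG13042 (signal 152) and Agpat4 (246), and Cpr72Ec was 13710 bp from the nearer one. For Cpr62Ba to Cpr62Bc (3 genes) the interval was 48191 bp, between summits near GV1 (459) and CG12024 (430), and Cpr62Bc was nearest at 14974 bp. Cpr64Aa to Cpr64Ad (4 genes) lay in 41469 bp between summits near VhaM9.7-c (175) and CG46460 (496), with Cpr64Ad nearest at 12994 bp. Cpr67Fa1 to Cpr67Fb (3 genes) lay in 32545 bp between tna (232) and Aps (127), with Cpr67Fb nearest at 5228 bp. The shortest interval, 18686 bp, was that of Cpr78Ca to Cpr78Cc (3 genes), between CG12974 (254) and CG11309 (1039), with Cpr78Cc at 4019 bp. In that cluster all 3 genes had a pooled summit, and none had one at a reproducible peak. Cpr78Ca and Cpr78Cb shared the same pooled summit, with a signal of 42.4, and that of Cpr78Cc had 53.3.

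**Figure D4:**
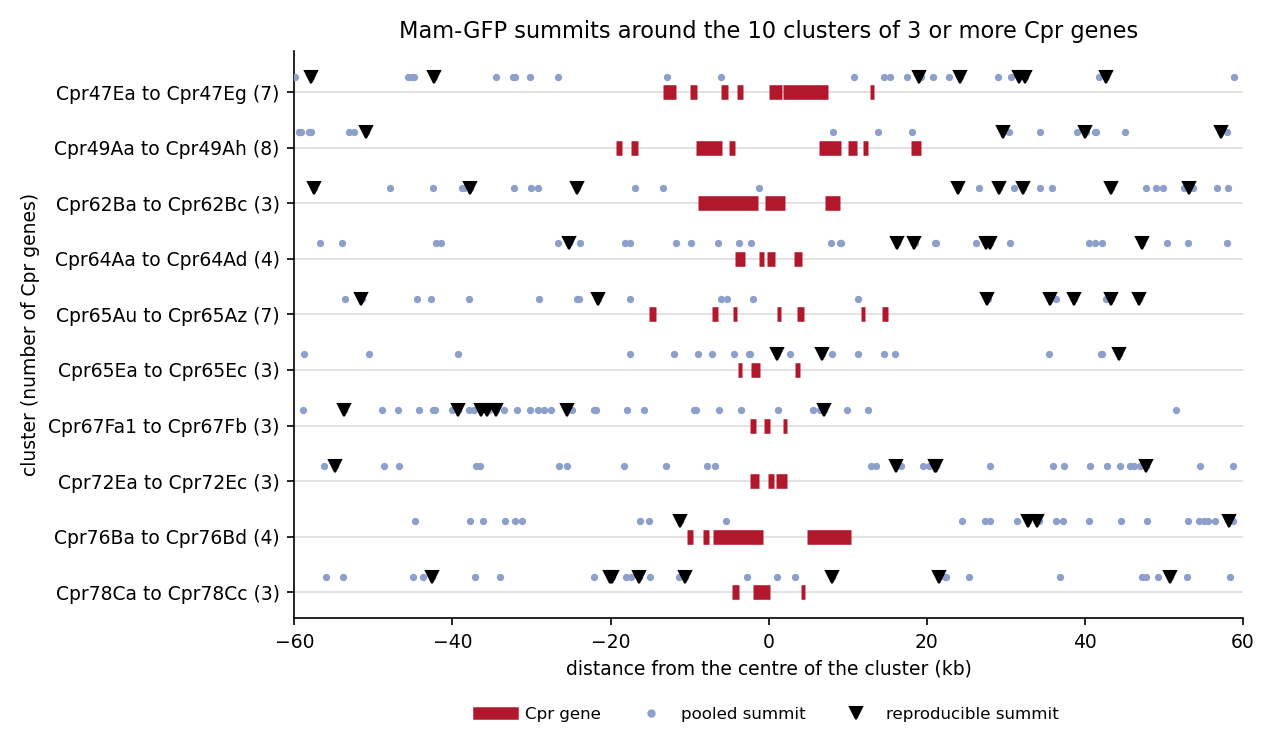
The 10 clusters of 3 or more Cpr genes, each drawn from its centre (distance in kb), with Cpr genes as red bars, pooled summits as blue dots and reproducible summits as black triangles. Reproducible summits stand beside the arrays, and 1 lies between the genes of a cluster, Cpr65Ea to Cpr65Ec.

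A total of 4 reproducible summits had a Cpr TSS as their nearest protein-coding TSS, or 0.0751% of 5326, where Cpr genes were 0.501% of genes. The strongest lay beyond the end of Cpr76Ba, the first gene of the Cpr76Ba to Cpr76Bd cluster (chr3L:19517552-19538289). Its pooled signal was 696 (rank 281), and its signals in replicates 1, 2 and 3 were 178, 252 and 262. It was intergenic, 819 bp outside the cluster and 1599 bp from the Cpr76Ba TSS, and none of the 4 genes had a summit within 1000 bp in any list. The second was the summit inside the Cpr65Ea to Cpr65Ec cluster (chr3L:7086003-7093841), with a pooled signal of 248 (rank 1927) and 96.4, 59.1 and 93.8 in the replicates. It was intergenic, 2174 bp from the TSS of Cpr65Eb and 2243 bp from that of Cpr65Ec. The third was 14027 bp from Cpr92A with a pooled signal of 149, in an intron of Dys, the dystrophin gene. The weakest was 7930 bp from Cpr35B with 113, and 2297 bp from the non-coding gene lncRNA:CR44732.

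The plus strand around both stronger summits, 120 bases each (dm6), is shown because these are the reproducible peaks closest to Cpr arrays. They are chr3L:19516673-19516792 beside Cpr76Ba, with a G+C content of 43.3%, and chr3L:7090901-7091020 beside Cpr65Eb, with 26.7%. None of the DRE, Motif 1, GAGA or Su(H) motifs was found in either, so both are in lower case throughout. In 120 bases around the weaker reproducible summits, a Su(H) match, ATGGGAA, was found at the one nearest Cpr92A. No motif was found at the one nearest Cpr35B. Around pooled summits, Cpr65Ea had a Su(H) match, GTGAGAA, and GAGAG, and Cpr64Aa had GAGAG. Those of Cpr65Ay, Cpr67B and Cpr65Ec had no match.
Beside Cpr76Ba: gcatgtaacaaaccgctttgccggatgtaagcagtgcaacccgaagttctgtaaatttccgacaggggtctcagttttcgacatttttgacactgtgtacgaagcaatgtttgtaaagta
Beside Cpr65Eb: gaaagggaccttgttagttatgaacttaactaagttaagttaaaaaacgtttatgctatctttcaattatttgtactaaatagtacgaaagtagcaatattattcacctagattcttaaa

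The next closest reproducible summits lay near TSSs of other genes. Cpr67B was 2320 bp from a summit (signal 229) that is 17 bp from a TSS of eIF4E1, a translation initiation factor gene. Cpr31A was 3236 bp from 1 near Pen, an importin gene, and Cpr66Cb was 4004 bp from 1 near CG7083. Of the 66 genes that flank the 33 groups, 12 (18.2%) had a reproducible summit within 1000 bp of a TSS, against 29.7% of all genes. Of the 31 other genes that lie inside group spans, 2 did, Ogdh and hwt. Of the remaining single genes and pairs, Cpr30F was closest to a reproducible summit, at 4993 bp, and Cpr11B, Cpr60D and Cpr23B followed, the last at 7859 bp. Cpr51A, Cpr78E, Cpr11A, Cpr66D, Cpr97Ea, Cpr56F, Cpr30B, Cpr57A, Cpr12A and Cpr100A lay between 11336 and 20383 bp away. Cpr50Cb was 27513 bp away, Cpr92F 35332 bp and Cpr5C, the farthest of these, 40576 bp.

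Promoters of the Cpr genes were read from the Release 6 genome, 250 bases before to 50 after the canonical TSS. A TATA box, the letters TATAAA between 45 and 15 bases before the TSS on the gene's strand, was found in 42 of 70 Cpr promoters (60%), against 8.94% of all 13968. The TATA box is a core promoter element bound by the general factor TFIID. In larval and pupal cuticle genes the share was 77.8%, and in Tweedle genes, another cuticle protein family, 60%. Motifs typical of widely expressed genes and factor sites were sought on both strands of the whole window. DRE (TATCGATA) was found in 1 Cpr promoter (1.43%), against 8.94% of all. Motif 1 (GGTCACAC) was found in 0, against 7.52%. GAGA (GAGAG) was in 26 (37.1%), against 30.2%.

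A Su(H) site, taken as ATGGGAA with the variants that begin with G or hold A in place of the middle G, on either strand, was found in 3 Cpr promoters (4.29%), against 14.6% of all. An initiator, TCAGT or TCATT within 10 bases of the TSS on the gene's strand, was in 15 (21.4%), against 16.1%. Initiator and TATA windows do not overlap, whereas the other motifs could overlap either. Variants such as TATATAA were not counted as a TATA box. A match is a description of letters and not of binding.

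The core promoters of the Cpr65Ea to Cpr65Ec cluster are shown because the reproducible summit lies between them, those of Cpr65Ax1 and Cpr65Ax2 because of their likeness, and that of Cpr76Ba because the strongest summit lies beside it. Each is the 60 bases before the canonical TSS on the gene's strand, with TATAAA in capitals where it lies in the searched window. The gene Cpr73D (canonical TSS) and Cpr65Ay had no match. The promoters of Cpr65Ax1 and Cpr65Ax2 share a run of 59 bases.
Cpr65Ea: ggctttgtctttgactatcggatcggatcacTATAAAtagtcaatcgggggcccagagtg
Cpr65Eb: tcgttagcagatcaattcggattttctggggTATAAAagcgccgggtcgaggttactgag
Cpr65Ec: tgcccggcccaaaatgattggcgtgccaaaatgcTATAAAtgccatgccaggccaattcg
Cpr65Ax1: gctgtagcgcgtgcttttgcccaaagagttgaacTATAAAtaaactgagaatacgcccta
Cpr65Ax2: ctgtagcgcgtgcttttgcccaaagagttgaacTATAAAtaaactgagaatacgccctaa
Cpr76Ba: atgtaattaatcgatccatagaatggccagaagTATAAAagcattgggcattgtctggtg
Cpr73D: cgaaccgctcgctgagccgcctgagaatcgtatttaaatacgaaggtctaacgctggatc
Cpr65Ay: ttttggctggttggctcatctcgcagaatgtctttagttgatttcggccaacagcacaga

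Summits were fewer at promoters with a TATA box across the whole genome. Of the 1249 protein-coding genes with a TATA box, 10.2% had a reproducible summit and 33.1% a pooled one, against 31.6% and 61.4% of the 12719 without. Among Cpr genes, 0 of the 42 with a TATA box had a reproducible summit and 9 (21.4%) a pooled one. Of the 28 without a TATA box, 1 had a reproducible summit, Cpr73D, and 12 (42.9%) a pooled one. In both classes the Cpr share was under that of all genes. For DRE the shares went the other way, with a reproducible summit at 48.4% of genes with a match and 27.8% of those without. For Su(H) sites they were 28.8% and 29.8%.

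**Figure D5:**
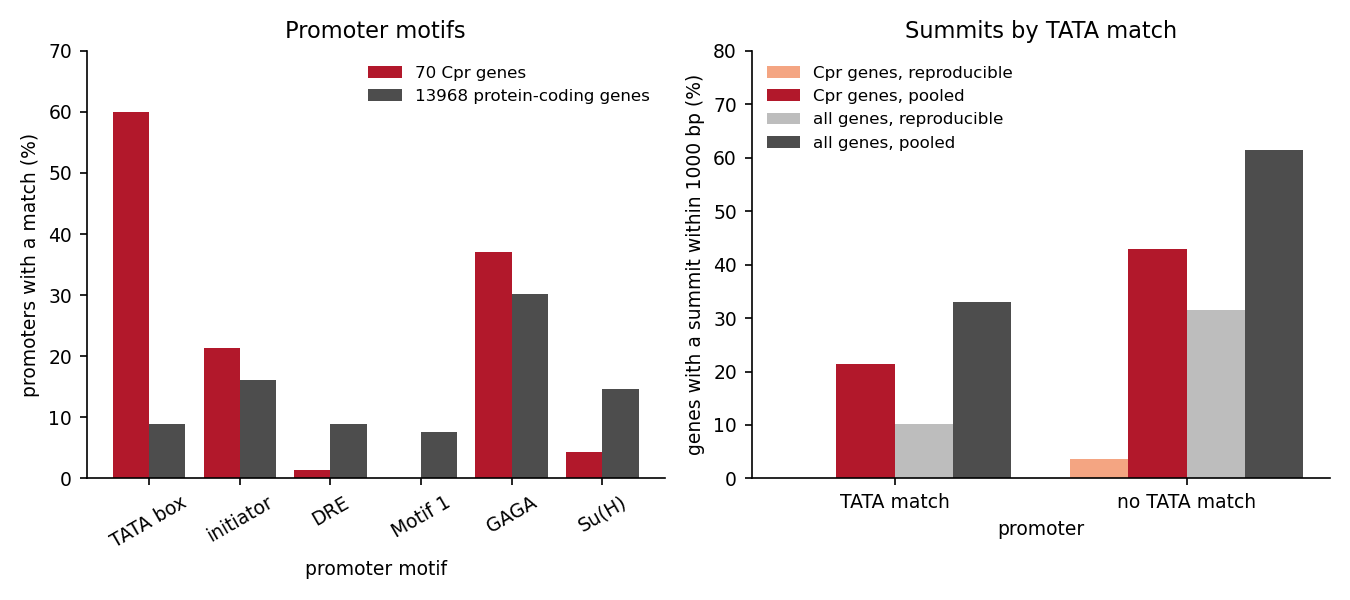
Left, share of promoters with each motif in Cpr genes (red) and all protein-coding genes (grey), in percent. Right, share of genes with a reproducible or a pooled summit within 1000 bp of a TSS, in percent, for promoters with and without a TATA box. Cpr promoters held a TATA box in 60% of cases against 8.94%, and genes with a TATA box had fewer summits in both sets.

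The other structural cuticle genes had counts near those of the Cpr genes. A reproducible summit within 1000 bp of a TSS was found at 0 of 27 larval and pupal cuticle genes, 0 of 25 Tweedle genes and 0 of 13 Vajk and obstructor genes, whose products are chitin-associated matrix proteins. The share over all genes was 29.7%. Pooled summits were at 6 (22.2%), 5 (20%) and 4 (30.8%) of them, against 58.9% of all genes. The mean share over the replicate lists was 28.4% ± 16.7, 25.3% ± 8.33 and 28.2% ± 11.8 (SD, n = 3), against 30.5% ± 3.30 for Cpr genes and 59.9% ± 2.64 for all genes. The members of each of these lists were few, and the difference between lists was not tested.

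Of 11 genes of chitin synthesis and assembly, 3 (27.3%) had a reproducible summit, against 29.7% of all genes. These were mmy, which makes the UDP-N-acetylglucosamine that chitin is built from (signal 132, 62 bp from a TSS), Gfat2, an enzyme of the same pathway (111, 75 bp), and rtv, a membrane protein needed for ordered chitin (153, 57 bp). Of 16 chitinase and chitinase-like genes, 4 (25%) had one, namely Idgf6 (205), Cht8 (124), Cht7 (185) and Cht11 (395). Of 8 genes of tanning, the hardening and pigmentation of cuticle, 1 (12.5%) had one, Ddc, the dopa decarboxylase gene (150, 766 bp from its TSS). The shares of these lists were thus near or under that of all genes. Their replicate means were 63.6% ± 15.7, 52.1% ± 3.61 and 50% ± 0 (SD, n = 3), against 59.9% ± 2.64 for all genes. Signals of mmy were 60.9, 50.9 and 47.4 in replicates 1, 2 and 3, and those of Cht11 were 113, 154 and 128. Of these 8 genes, 4 were above the signal at rank 5326 of the list in all 3 replicates (mmy, Idgf6, Cht7 and Cht11). The other 4 were under it in 1 replicate each, Gfat2 at 30.6 and rtv at 40.3 in replicate 1, Cht8 at 27.4 in replicate 2 and Ddc at 31.2 in replicate 3.

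Odorant and gustatory receptor genes, families that are active in sensory neurons, were set beside the Cpr genes as other late, tissue-restricted families. Their clustering was not measured. Of 59 odorant receptor genes, 1 had a reproducible summit (1.69%) and 7 a pooled one (11.9%). Of 60 gustatory receptor genes, 2 (3.33%) and 5 (8.33%) did. Over all genes the shares were 29.7% and 58.9%. Their replicate means were 14.7% ± 5.95 and 22.8% ± 8.22 (SD, n = 3), against 59.9% ± 2.64 for all genes, and their median distances to a reproducible summit were 27674 and 10912 bp. The Cpr median of 15273 bp lay between them.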

How the data were processed

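The authors' deposited dm6 peak lists give a signal (peak height, scaling not given), a −log10 q-value and a summit offset per peak, and the notes deposited with the samples call the replicate and pooled lists peaks and background made as input for IDR. Neither peak caller nor aligner is named in the sources used here. The dm3 lists were not used. Summits were looked up within 1000 bp of any protein-coding TSS of Ensembl 115 (19630 TSSs) with Python 3.11.15 and numpy 2.4.6, and calls were counted per gene, with the same count over all genes. The reproducible list was the 5326 strongest of the pooled list, so both share their peaks. Ranks were read within a list. All 70 symbols matched RefSeq. The members and lists were chosen with earlier results of these data known. The q-value threshold of 0.05 and the wider domain pattern (a stricter one matched 28 genes) were chosen after values were seen. Named genes were those with a reproducible summit, with one in all 3 replicates, the 10 highest pooled signals, the member of each group nearest to a reproducible summit, genes at summits flanking clusters of 3 or more, and listed cuticle genes with a reproducible summit. The lookup was tested on simulated data.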

Additional observations from a re-analysis of the deposited data

How the results depend on the processing

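No paired analysis was possible because the samples form 1 group. Of 50 alternatives to 7 results, 27 left the value within 1.5 times of the count, or within 1 SD of the replicate mean or distance. With a window of 500, 2000 or 5000 bp, the Cpr genes with a reproducible summit numbered 0, 2 and 12 (26.2%, 35.2% and 50.3% of all genes), those with a pooled summit 9, 37 and 53 (51.6%, 68.4% and 83.1%), the replicate mean was 16.2%, 51.9% and 82.4%, and the groups with a reproducible summit at a member numbered 0, 2 and 8. With canonical TSSs, genes and groups with a reproducible summit both fell to 0. With any base of the peak in place of the summit, the replicate mean was 36.7%. Counting the peaks at or above the median signal of each list, 8 genes had a pooled summit (45.7% of all genes), the replicate mean was 11.4%, and the median distance to a reproducible summit was 19117 bp. With the strongest 5326 peaks the replicate mean was 1.43%, against 29.4% over all genes. The other replicate means in this paragraph, the counts of groups and the median distance were not computed over all genes. Whether the replicate difference holds at other windows was thus not tested.

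Leaving out 1 replicate, the Cpr genes with a reproducible summit stayed at 1 and the groups with one inside at 2. Of all genes, 26.4%, 24.5% and 24.1% had a reproducible summit without replicate 1, 2 and 3, against 29.7% with all of them. The replicate mean ranged from 28.6% to 31.4%, the median distance from 17297 to 18534 bp, and the genes of the 6 other cuticle lists from 5 to 7 in place of 8, with the 5 reached without replicate 2. These last 2 sets of alternatives were chosen after seeing the data, and the distance was not computed over all genes. A left-out list holds fewer peaks, 4165 to 4410, by construction. Joining genes at 100000 bp gave 3 groups with a summit inside, against 2 at 50000 bp and at 20000 bp. No alternative was run for the promoter motifs.

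Depth is unknown, so a missing summit is not absence of Mam. Whole embryos mix tissues and 24 h of ages, and the number of cells that transcribe Cpr genes was not measured.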
